A study of Mus musculus with 6 samples.

Results

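Mal, Prx, Pmp22, Cdh19, Sox10, S100b, Scn7a and Gfra3 are 8 genes of Schwann cells, the glia of peripheral nerve, and their levels are given here for the inguinal white adipose tissue (iWAT) of mice, fat that lies under the skin. They were chosen by name, as genes of myelinating and non-myelinating Schwann cells, with earlier results of these data known. Each matched 1 row among the 54532 genes of the count table. The series holds 6 bulk RNA-seq libraries, 3 from control mice (Cdo1flox/flox, with WT as their genotype label) and 3 from Cdo1AKO mice, which have a knockout of Cdo1 in their fat. Both groups began a high-fat diet at 8 weeks of age and stayed on it for 15 weeks. Cdo1 encodes cysteine dioxygenase 1. The promoter that drove the deletion, the sex of the mice and whether tissue was pooled are not given in the sources used here. The labels leave it unsaid whether libraries of 1 group stem from different animals, and a p-value here weighs a difference against the spread of these libraries, which may be technical.

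Sympathetic and sensory fibres run through subcutaneous fat in small nerve bundles. Myelinating Schwann cells wrap single axons in a sheath held together by proteins such as PMP22, MAL and periaxin, while non-myelinating (Remak) Schwann cells enclose several thin axons without compact myelin. SOX10 is required for the whole lineage and, with EGR2, for transcription of myelin genes. In bulk tissue, fewer Schwann cells and less RNA of these genes per cell cannot be told apart.

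The libraries held 16275184 to 19205804 counts. Control 1 and Cdo1AKO 2 lacked lymph node transcripts, with a median of 0.0614 and 0.386 CPM (counts relative to the TMM-scaled library size) over 17 lymph node and B cell markers, against 57.6 to 105 CPM in the other 4 libraries. Both groups thus include 1 library of the first kind and 2 of the second, and values are given below for each kind. Cdo1 itself stood at 887, 432 and 631 CPM in controls and at 123, 392 and 134 CPM in Cdo1AKO (replicates 1 to 3). The groups did not overlap, with Cdo1AKO 2 close to control 2, and Cdo1 did not pass edgeR's test (adjusted p = 0.416).

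Of the 8 genes, 6 were lower on average in Cdo1AKO, and 5 of them (Mal, Prx, Cdh19, Sox10 and Scn7a) were lower in every Cdo1AKO library than in any control library. Among all 16623 genes tested, 9.73% lay lower without overlap and 8.87% higher. Control means were 4.06 times the Cdo1AKO level for Sox10, 3.58 times for Mal, 3.06 times for Cdh19, 2.57 times for Gfra3, 1.95 times for Prx and 1.53 times for Scn7a, as fitted by edgeR. Pmp22 and S100b were on average higher in Cdo1AKO, through the single library Cdo1AKO 2. At an adjusted p under 0.05 over all tested genes, edgeR's quasi-likelihood test called 0 of the 8 and 0 genes in all. The median log2 fold change of the 8 was -1.16, against 0.06 over all tested genes. At an unadjusted p under 0.05 edgeR called 6 of the 8 as lower, against 5.71% of all tested genes on that side. Since the 8 were chosen with earlier results of these data known, their shares and median are a description and not a test. DESeq2 called 3 of the 8 as lower (Mal, Cdh19 and Sox10). Of the 18339 genes to which it gave an adjusted p, it called 0.965% as lower and 0.513% as higher. limma-voom called 0 of the 8 and 0 genes in all.

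**Figure D1:**
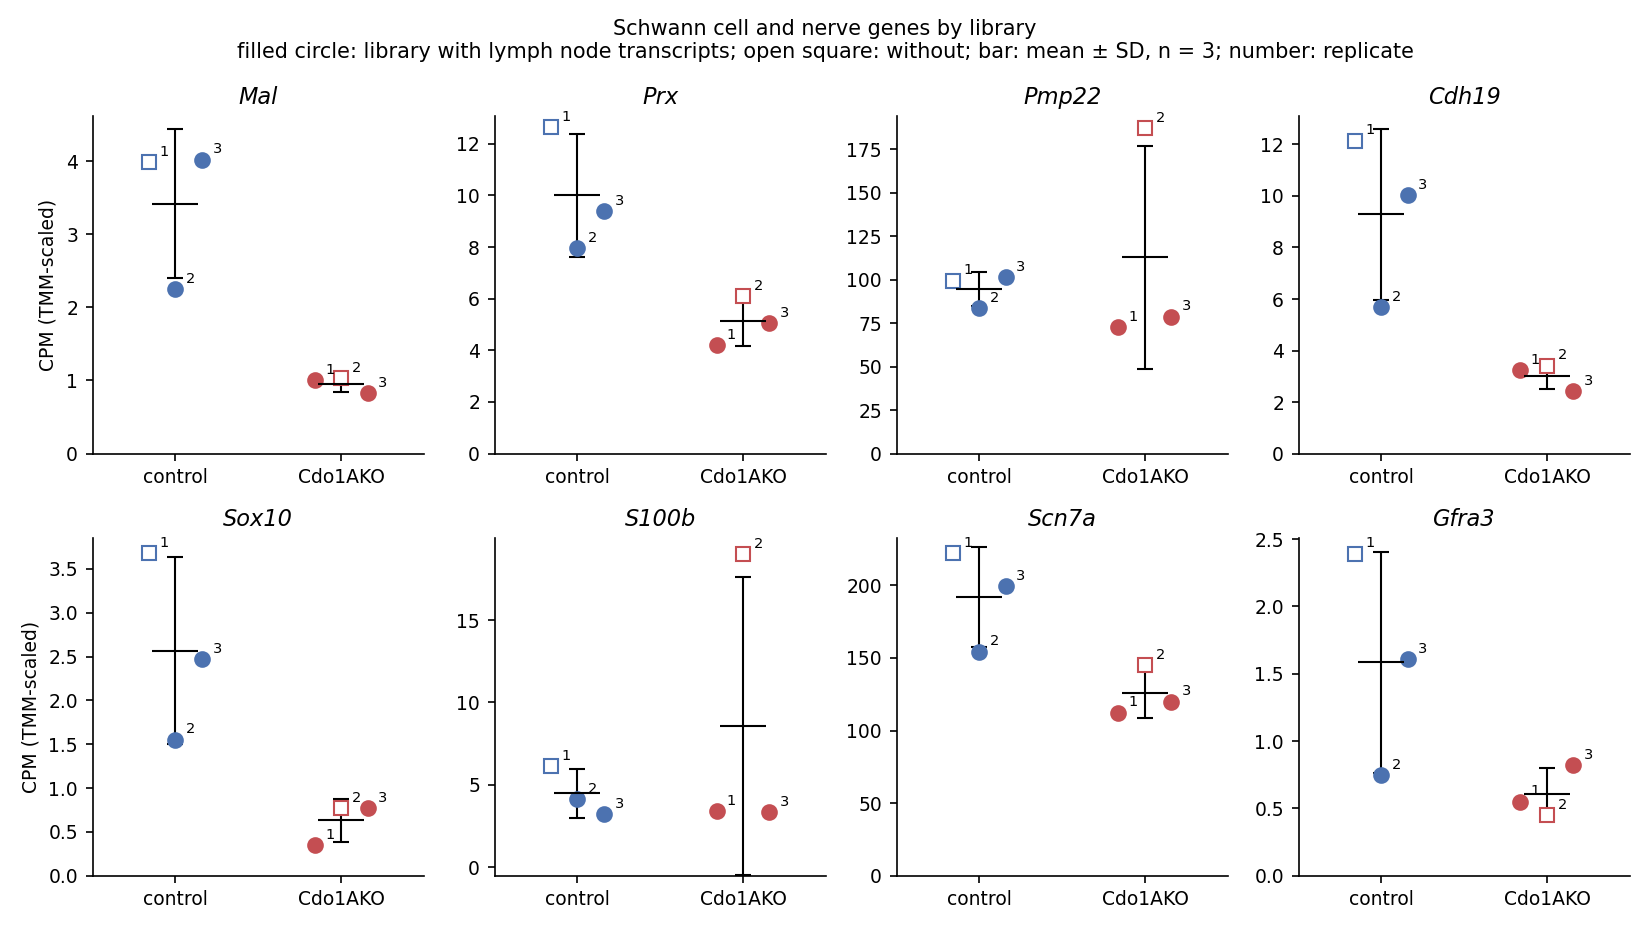
CPM of the 8 genes (y axis, TMM-scaled) in each library by group (x axis); symbols are libraries, numbers are replicates, open squares mark the 2 libraries without lymph node transcripts, and bars give mean ± SD (n = 3). The groups do not overlap for Mal, Prx, Cdh19, Sox10 and Scn7a, while Cdo1AKO 2 stands alone at the top for Pmp22 (187 CPM) and S100b (18.98 CPM).

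Sox10 (ENSMUSG00000033006, mm10 chromosome 15, 79154908 to 79165240, minus strand), the transcription factor that defines the lineage, measured 3.68, 1.55 and 2.47 CPM across the controls (replicates 1 to 3) but 0.350, 0.772 and 0.768 CPM across Cdo1AKO (replicates 1 to 3, in this order throughout). These levels rest on 60, 29 and 46 reads in controls and on 7, 12 and 14 reads in Cdo1AKO. The 3 Cdo1AKO libraries were alike in being below 1 CPM, and control 2 was the lowest control. edgeR put the log2 fold change at -2.02 ± 0.50 (SE, 3 libraries per group) with an adjusted p of 0.345, and DESeq2 gave an adjusted p of 0.0433.

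SOX10 is also made by melanocytes and by mammary epithelium, which an inguinal pad can hold. The 8 melanocyte markers summed to 2.52 to 5.35 CPM in controls and 4.37 to 8.65 CPM in Cdo1AKO, and 6 of them were too low to be tested. Of 16 mammary and other epithelial markers 3 were tested, the milk protein gene Csn3 had 0 counts in every library, and the list summed to 5.03 to 9.76 CPM against 3.47 to 7.90 CPM. The sums of both lists overlapped between the groups. The median of the mammary list was low and did not overlap, at 0.0267 to 0.245 CPM in controls and 0 to 0.0250 CPM in Cdo1AKO. With no filter on low counts 10 of 15 mammary markers were negative (median -0.73), while 1 of the 3 tested was (median 0.65). The part of these cells in the Sox10 values was not tested.

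Mal (ENSMUSG00000027375, chromosome 2, 127633226 to 127656695, minus strand) encodes a membrane proteolipid of compact myelin that is also found in T cells and in polarised epithelia. Controls held 3.99, 2.25 and 4.02 CPM of it, and Cdo1AKO held 0.9998, 1.03 and 0.823 CPM. The 3 Cdo1AKO values lay close together and below the lowest control. Its log2 fold change of -1.84 ± 0.35 (adjusted p = 0.271 by edgeR) had the 101st smallest p of 16623 tested genes, and DESeq2 gave an adjusted p of 0.00859. The 14 T cell markers summed to 16.2, 499 and 296 CPM over the controls and to 1323, 20.8 and 1324 CPM over Cdo1AKO, and their part in the Mal values was not tested.

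Prx (ENSMUSG00000053198, chromosome 7, 27499324 to 27520214, plus strand) encodes periaxin, which links the myelinating cell's membrane to its cytoskeleton through DRP2. Its level was 12.6, 7.97 and 9.38 CPM in controls and 4.20, 6.11 and 5.05 CPM in Cdo1AKO. The groups did not overlap, with the smallest gap between control 2 and Cdo1AKO 2. edgeR put the log2 fold change at -0.97 ± 0.27 (adjusted p = 0.362). An antisense gene, Gm15541, overlaps Prx by 5405 bases but held only 2 to 17 counts per library, against 84 to 206 for Prx.

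Pmp22 (ENSMUSG00000018217, chromosome 11, 63128982 to 63159547, plus strand), a dosage-sensitive myelin protein that fibroblasts and other cells also make, measured 99.6, 83.7 and 101 CPM in controls and 72.7, 187 and 78.8 CPM in Cdo1AKO. Cdo1AKO 1 and 3 lay below every control and Cdo1AKO 2 above every one. The log2 fold change of 0.25 ± 0.38 (adjusted p = 0.839 by edgeR) became -0.32 ± 0.12 without Cdo1AKO 2. In that library the 14 fibroblast markers summed to 7448 CPM, against 2624 to 3750 CPM in the other 5 libraries. Their part in the Pmp22 value was not tested.

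Cdh19 (ENSMUSG00000047216, chromosome 1, 110888326 to 110977584, minus strand) encodes a cadherin largely restricted to the Schwann cell lineage. It had 12.1, 5.67 and 10.03 CPM in controls and 3.25, 3.41 and 2.42 CPM in Cdo1AKO. Every Cdo1AKO library lay below the lowest control, with a log2 fold change of -1.62 ± 0.35 (adjusted p = 0.309 by edgeR and 0.00804 by DESeq2). The p was the 157th smallest of all tested genes.

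Scn7a (ENSMUSG00000034810, chromosome 2, 66673425 to 66784914, minus strand) encodes the sodium-sensing channel Nax, a gene of non-myelinating Schwann cells. Its level was 222, 154 and 199 CPM in controls and 112, 145 and 120 CPM in Cdo1AKO. The groups were separated by the narrow gap between control 2 and Cdo1AKO 2. edgeR put the log2 fold change at -0.61 ± 0.19 (adjusted p = 0.396), the smallest in size among the 6 lower genes. The control mean of Scn7a was 192 CPM, against 2.57 CPM for Sox10 and 9.28 CPM for Cdh19. The part of other cells in the Scn7a values was not tested.

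Gfra3 (ENSMUSG00000024366, chromosome 18, 34689903 to 34720387, minus strand) encodes the receptor subunit that binds artemin and signals through RET, and it marks non-myelinating Schwann cells and some sensory neurons. It had 2.39, 0.749 and 1.61 CPM in controls and 0.550, 0.450 and 0.823 CPM in Cdo1AKO. The groups overlapped, since Cdo1AKO 3 lay above control 2. The counts were 7 to 39 per library, and edgeR gave a log2 fold change of -1.36 ± 0.53 (adjusted p = 0.463).

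S100b (ENSMUSG00000033208, chromosome 10, 76253853 to 76261159, plus strand) encodes a calcium-binding protein used as a glial marker that adipocytes also make. It had 6.14, 4.12 and 3.22 CPM in controls and 3.40, 18.98 and 3.35 CPM in Cdo1AKO. Cdo1AKO 1 and 3 lay within the control range and Cdo1AKO 2 far above it. The log2 fold change of 0.93 ± 0.75 (adjusted p = 0.693 by edgeR) became -0.41 ± 0.33 without Cdo1AKO 2. S100b overlaps Dip2a on the opposite strand by 1731 bases, and Dip2a held 572 to 989 counts per library against 60 to 295 for S100b. How strand was treated in counting is not stated, and reads of these 2 genes in the overlap cannot be told apart.

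Per length, the order of the control levels by the deposited FPKM was Pmp22 (40.0 ± 4.20, SD, n = 3), Scn7a (26.0 ± 4.82), S100b (3.01 ± 1.03), Cdh19 (2.16 ± 0.779), Prx (1.78 ± 0.442), Mal (1.22 ± 0.366), Sox10 (0.837 ± 0.355) and Gfra3 (0.791 ± 0.417). From S100b to Gfra3, each neighbouring pair in that order differed by less than 1 SD of the higher gene, except Prx from Mal and Mal from Sox10. In Cdo1AKO Pmp22 (47.6 ± 27.04) and Scn7a (17.1 ± 2.29) again stood first. They were followed by S100b (5.74 ± 6.01), Prx (0.912 ± 0.168), Cdh19 (0.703 ± 0.124), Mal (0.340 ± 0.0396), Gfra3 (0.303 ± 0.0966) and Sox10 (0.205 ± 0.0788). Sox10 thus moved from the seventh to the last place, and Prx stood above Cdh19, though neither pair was tested.

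Values were also read within each kind of library. Between the 2 libraries without lymph node transcripts, 1 per group and so with no test, the control held 5.31 times the Cdo1AKO level of Gfra3, 4.77 times that of Sox10, 3.88 times that of Mal, 3.56 times that of Cdh19, 2.07 times that of Prx and 1.53 times that of Scn7a. In the 4 libraries with these transcripts the control mean was 1.72 times the Cdo1AKO mean for Gfra3 (adjusted p = 0.349 by edgeR), 3.59 times for Sox10, 3.44 times for Mal, 2.77 times for Cdh19, 1.88 times for Prx and 1.52 times for Scn7a. In the pair without them Pmp22 and S100b were higher in Cdo1AKO, at 187 against 99.6 CPM and at 18.98 against 6.14 CPM. Within the 4 libraries with these transcripts all 8 genes had negative log2 fold changes, from -1.85 ± 0.50 for Sox10 to -0.12 ± 0.26 for S100b. There edgeR called 5 of the 8 as lower (Mal, Prx, Cdh19, Sox10 and Scn7a, adjusted p from 0.0294 to 0.0482), where 7.7% of all tested genes were called lower. Cdo1AKO 1 and 3 differed little from each other, with a chi-square of counts per gene of 5.63, against 23 for controls 2 and 3. These p-values rest on that small spread, which may not be the spread between animals. With a lymph node term fitted over all 6 libraries edgeR called 4 of the 8 as lower (Mal, Prx, Cdh19 and Sox10, adjusted p from 0.0383 to 0.0475), where 1.87% of genes were called lower. The direction of the 6 lower genes was thus the same in both kinds of library.

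**Figure D2:**
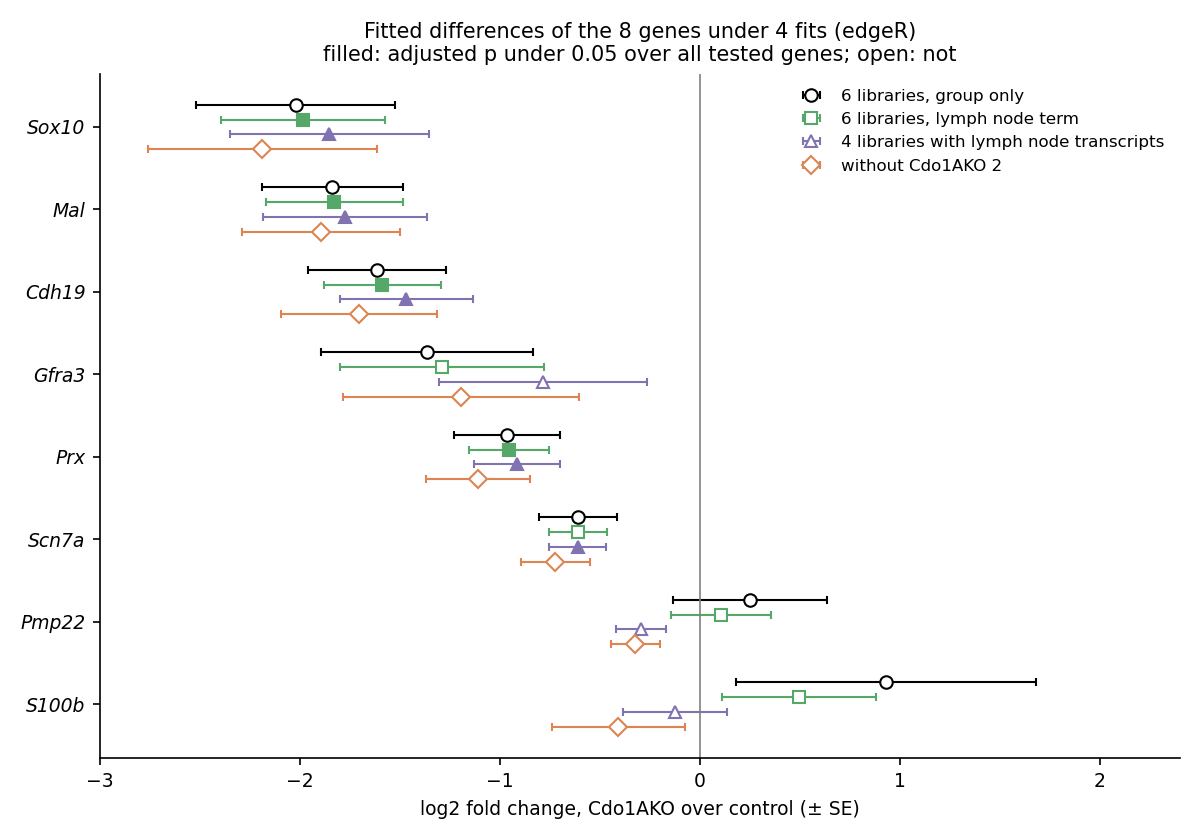
Log2 fold change of Cdo1AKO over control ± SE (x axis) for the 8 genes (y axis) from edgeR with group only, with a lymph node term, within the 4 libraries with lymph node transcripts, and without Cdo1AKO 2. Filled symbols have an adjusted p under 0.05. Mal, Cdh19, Sox10 and Prx keep nearly the same value in all 4 fits, while Pmp22 and S100b change sign.

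The authors' deposited table gives an adjusted p under 0.05 for 3 of the 8 genes, each lower: Cdh19 (log2 fold change -1.62, adjusted p = 0.00761), Mal (-1.84, 0.00812) and Sox10 (-2.04, 0.0411). Of the 27492 genes with an adjusted p in that table, 0.655% were lower at this threshold. In the authors' deposited table the adjusted p was 0.114 for Prx, 0.254 for Scn7a, 0.404 for Gfra3, 0.725 for S100b and 0.910 for Pmp22.

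Other genes of the myelin sheath split into members that were lower together with these and members that were not. Of 26 such genes 19 were tested, 11 with a negative and 8 with a positive log2 fold change. edgeR called 0 of them. The list median was -0.10, against 0.06 over all tested genes, and it moved to 0.05 when library totals alone were used for scaling. With each library left out in turn it ranged from -0.22 (without Cdo1AKO 3) to -0.07 (without control 1). The groups did not overlap for 6 lower genes and 1 higher gene.

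Cadm4, a cell adhesion molecule of the Schwann cell's axon-facing membrane, measured 10.9, 4.60 and 6.70 CPM across controls but 2.75, 2.12 and 2.31 CPM across Cdo1AKO. Every Cdo1AKO library lay below the lowest control, with a log2 fold change of -1.63 ± 0.37 (adjusted p = 0.340 by edgeR and 0.0177 by DESeq2). Lower without overlap were also Drp2, the partner of periaxin, at -1.25 ± 0.35 (log2 fold change ± SE), Cldn19, of the sheath's tight junctions, at -1.88 ± 0.54, and Fa2h, which hydroxylates the fatty acids of myelin lipids, at -2.05 ± 0.60. Mbp and Mag did not share this pattern. Mbp, myelin basic protein, which other cells also transcribe from its locus, had 75.7 ± 4.36 CPM in controls and 69.0 ± 21.3 CPM in Cdo1AKO (SD, n = 3). Mag, the myelin-associated glycoprotein, had 0.916 ± 0.352 CPM against 0.827 ± 0.173 CPM. The higher gene without overlap, the tetraspanin Cd9, had 0.44 ± 0.13 and is made by many cells.

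**Figure D3:**
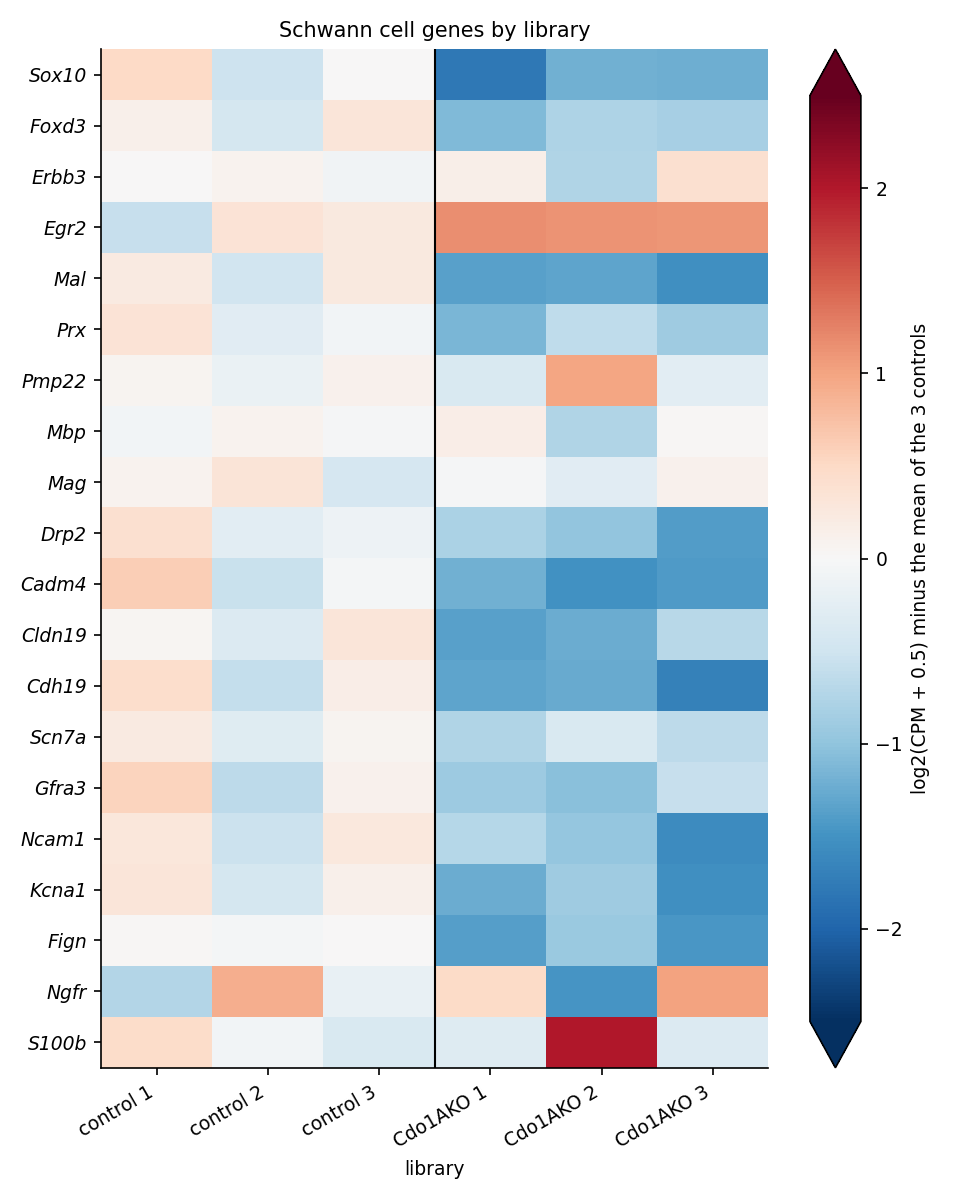
Log2(CPM + 0.5) minus the mean of the 3 controls (colour) for Schwann cell genes (rows, chosen after their values were seen) in the 6 libraries (columns). Mal, Cdh19 and Cadm4 are blue in all 3 Cdo1AKO libraries, Mbp and Mag are near white in Cdo1AKO 1 and 3, Egr2 is red in all 3, and Pmp22 and S100b are red in Cdo1AKO 2 only.

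Other regulators of the lineage showed no common direction. Of 26 genes 16 were tested, 7 negative and 9 positive, and 0 were called by edgeR with group only or by DESeq2. The median of 0.10 became -0.03 (9 of 17 negative) without Cdo1AKO 2. Egr2, the transcription factor that acts with SOX10 on myelin genes and that T cells and macrophages also make, was higher without overlap, at 2.52, 5.14 and 4.77 CPM in controls and 9.55, 9.26 and 9.06 CPM in Cdo1AKO. The difference on the log2 scale was 1.16 ± 0.31 (SE), with an edgeR adjusted p of 0.345 with group only. edgeR called Egr2 higher with the lymph node term (adjusted p = 0.04997) and within the 4 libraries with lymph node transcripts (0.0236). Of the 16 regulators it called 0 lower and 1 higher with the term, and 2 lower and 1 higher within those libraries. Over all genes these fits called 686 of 16623 and 2617 of 17049, in either direction. Macrophage markers also did not overlap as a sum, with 723 to 844 CPM in controls and 948 to 1014 CPM in Cdo1AKO over 11 genes (10 of 11 positive, none at 0). Their part in the Egr2 value was not tested. Erbb3, the neuregulin receptor of Schwann cells, had 3.06 ± 0.211 CPM against 3.08 ± 1.32 CPM. Itga6, a laminin receptor subunit, lay higher without overlap, at 0.77 ± 0.35 (log2 fold change ± SE), with 252 CPM in Cdo1AKO 2 against 109 and 112 CPM in the other 2 Cdo1AKO libraries. Plekha4 lay lower without overlap, and Sostdc1 had -1.40 ± 0.64 with overlap. Foxd3, an early factor of the lineage, was too low to be tested, at 0.798, 0.374 and 0.965 CPM in controls and 0.04999, 0.193 and 0.165 CPM in Cdo1AKO.

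Among 17 other genes of non-myelinating Schwann cells, 15 were tested, with 8 negative and 7 positive. The list median was -0.01 on the log2 scale, and 0.10 with library totals alone. With each library left out in turn it ranged from -0.52 (without control 2) to -0.11 (without control 3), and it was 0.23 within the 4 libraries with lymph node transcripts. edgeR with group only called 0 and DESeq2 called 2, Fign and Aspa. With the lymph node term edgeR called 3 of the 15 lower (Fign, Aspa and Kcna1) and 1 higher (Adam23). The same genes were called within the 4 libraries. Of all tested genes 1.87% and 7.7% were called lower in these fits. The groups did not overlap for 5 lower genes and 1 higher gene. Fign, a microtubule-severing enzyme, had 14.1, 13.5 and 14.0 CPM in controls and 5.05, 7.08 and 4.78 CPM in Cdo1AKO, a log2 fold change of -1.30 ± 0.22 (adjusted p = 0.248 by edgeR). Aspa, the aspartoacylase gene, had -1.22 ± 0.31, the potassium channel gene Kcna1 -1.72 ± 0.44, the neural cell adhesion molecule Ncam1 -1.73 ± 0.61 and Cadm2 -1.03 ± 0.43. Aspa stood at 69.9 CPM in control 1 and at a mean of 49.9 CPM in controls 2 and 3. The part of other cells in the Aspa values was not tested. Adam23 was the higher one, at 49.6 ± 11.6 CPM in Cdo1AKO against 23.9 ± 6.22 CPM in controls (SD, n = 3). Ngfr, the low-affinity neurotrophin receptor, followed the lymph node transcripts rather than the groups, at 0.982, 4.12 and 1.66 CPM in controls and 2.90, 0.386 and 4.45 CPM in Cdo1AKO. Gfap, the glial filament gene, was too low to be tested, at 0 to 0.165 CPM.

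Transcripts of the axons themselves were mostly too low to be tested. Of 25 axonal and neuronal genes 8 were tested, 3 negative and 5 positive, with a median of 0.71 that ranged from 0.29 without control 1 to 1.11 without control 2. Th, which encodes the rate-limiting enzyme of noradrenaline synthesis, had 0 counts in all 6 libraries, which allows a level of up to 0.150 to 0.193 CPM per library (3 counts, counting error only). Calca, which encodes the sensory neuropeptide CGRP, had 5.58, 2.62 and 3.003 CPM in controls and 0.800, 1.42 and 0.768 CPM in Cdo1AKO. The groups did not overlap, with a log2 fold change of -1.91 ± 0.45 (adjusted p = 0.345 by edgeR and 0.0237 by DESeq2). The capsaicin receptor gene Trpv1 also lay lower without overlap, at -1.03 ± 0.36. The neuronal tubulin gene Tubb3 lay higher without overlap, at 1.61 ± 0.617 CPM in Cdo1AKO against 0.393 ± 0.0315 CPM in controls (SD, n = 3).

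Genes of the injury-induced repair Schwann cell were 8 of 12 tested, all 8 positive with a median of 0.78. Of these 0 were called by edgeR with group only or by DESeq2. Without Cdo1AKO 2, 3 of the 8 were negative (Jun, Bdnf and Mcam) and the median was 0.63. Within the 4 libraries with lymph node transcripts 3 of the 8 were negative too, and 2 of the 8 with the lymph node term, limma-voom or the replicate block. Within those libraries edgeR called 2 of the 8 lower and 3 higher, where 7.7% of all tested genes were called lower. With the lymph node term it called 0 lower and 1 higher (Runx2, adjusted p = 0.0493), where 1.87% of genes were called lower. The median was 0.50 without control 1. None was free of overlap between the groups. Runx2 had 0.87 ± 0.32, Lif 0.91 ± 0.49 and Igfbp2 2.02 ± 1.14 (log2 fold change ± SE), and other cells of fat also make these. The injury signals Shh, Olig1, Gdnf and Artn were too low to be tested. Among 14 genes of the perineurial and endoneurial sheath 10 were tested, 8 positive with a median of 0.41. Without Cdo1AKO 2 the median was -0.01, with 5 of 10 negative, and it was 0.21 without control 2 and 0.12 with the lymph node term. DESeq2 called 1, Sfrp5, a secreted Wnt antagonist that adipocytes also make. Sfrp5 had 429 ± 40.9 CPM in Cdo1AKO against 208 ± 47.5 CPM in controls (SD, n = 3). Plxdc1 had 1.11 ± 0.65 and Etv1 0.43 ± 0.37 (log2 fold change ± SE).

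Partners and relatives of the 8 genes were read in the same way. In the GDNF and neurotrophin family, 12 of 18 genes were tested, 6 negative and 6 positive (8 of 12 negative without Cdo1AKO 2). Of these 0 were called by edgeR with group only or by DESeq2. Ret, the signalling partner of GFRA3, had 24.7, 18.3 and 20.8 CPM in controls and 20.3, 139 and 21.1 CPM in Cdo1AKO, so that Cdo1AKO 2 alone stood out. Ntrk3 had -0.96 ± 0.38 and Ntrk2 -0.38 ± 0.17, both lower without overlap. Of 13 sodium channel genes 9 were tested. Scn8a was the one that DESeq2 called, as higher, at 4.60, 23.8 and 5.43 CPM in Cdo1AKO against 0.920, 1.60 and 2.04 CPM in controls. Scn2a had 0.87 ± 0.48 and Scn4b 1.25 ± 0.85. Of 10 relatives of MAL and PMP22 8 were tested, 3 negative and 5 positive, and without Cdo1AKO 2 the count was 6 negative of 9. Emp1 and Emp3, relatives of PMP22, lay higher without overlap, at 0.70 ± 0.20 and 0.72 ± 0.24, and Emp2 had -0.30 ± 0.21. With group only, edgeR called 0 genes of either list.

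**Figure D4:**
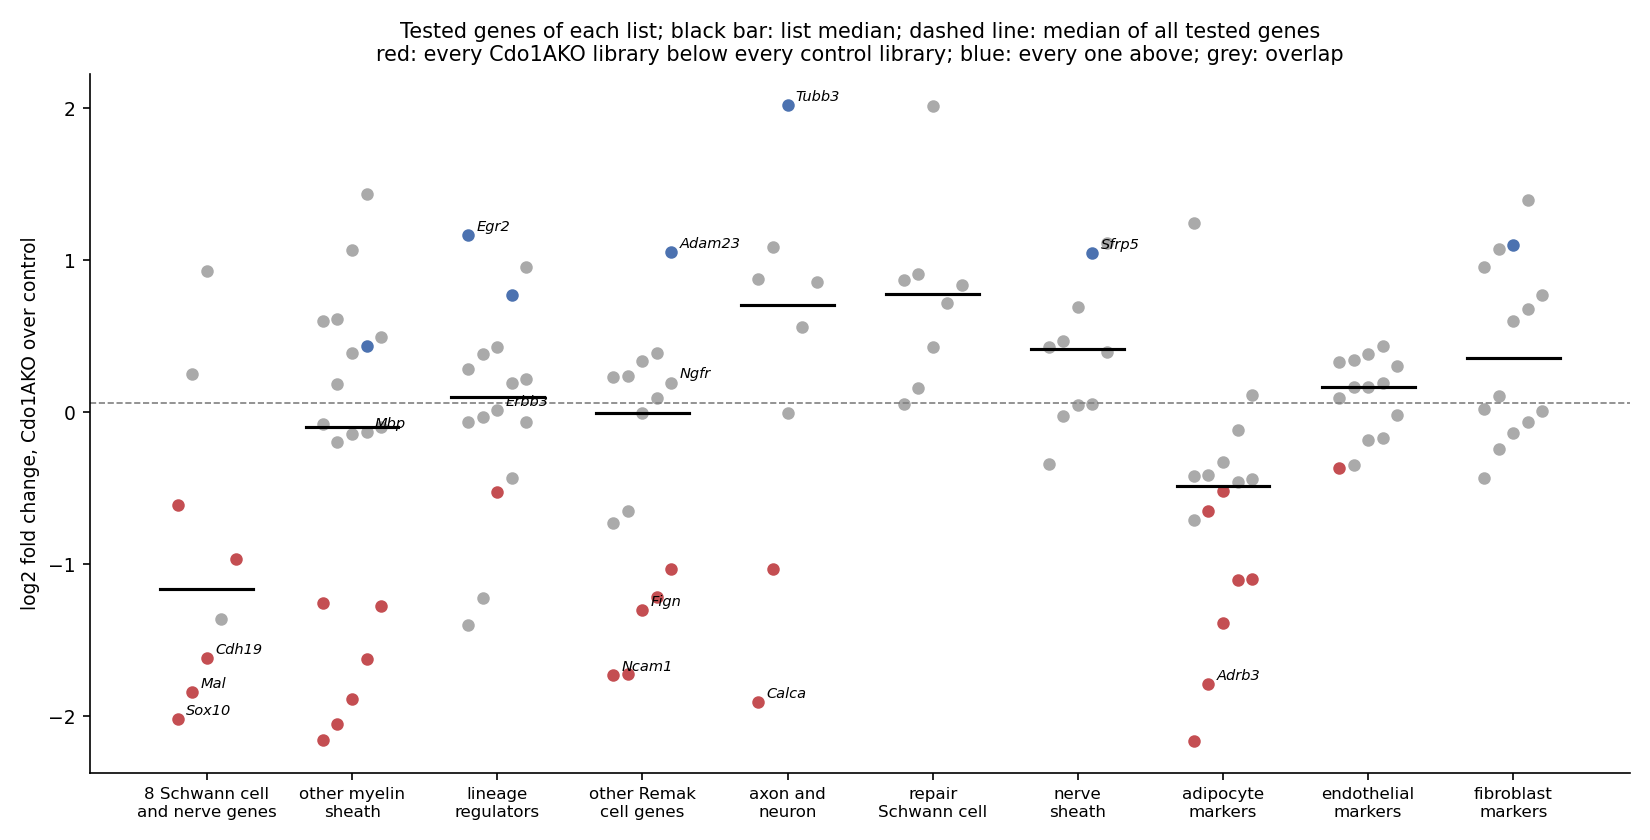
Log2 fold change (y axis) of each tested gene in 10 gene lists (x axis), with the list median as a black bar and the median of all tested genes (0.06) as a dashed line. Red and blue mark genes whose groups do not overlap. The 8 genes have the lowest median of the lists shown (-1.16), and the other myelin and Remak lists hold both red points below -1 and grey points near 0.

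Other cell types of the depot differed in the same libraries. Of 16 adipocyte markers 14 had negative log2 fold changes, with a median of -0.49, 7 lay lower without overlap, and none was at 0. Their summed level was 48287 to 72922 CPM in controls and 30080 to 67094 CPM in Cdo1AKO. Without Cdo1AKO 2 all 16 were negative with a median of -0.84. Within the 4 libraries with lymph node transcripts edgeR called 12 of the 16 as lower, where 7.7% of all tested genes were called lower. These p-values too rest on the small spread between Cdo1AKO 1 and 3. With the lymph node term edgeR called 4 as lower, where 1.87% of genes were called lower. Over all 6 libraries 9.73% of tested genes lay lower without overlap. Endothelial markers had a median of 0.16 (5 of 14 negative), with sums of 1286 to 1758 CPM and 1247 to 2512 CPM, and fibroblast markers had 0.35 (4 of 14 negative). Without Cdo1AKO 2 both directions turned, to -0.24 for endothelial markers (13 of 14 negative) and -0.17 for fibroblast markers (9 of 14 negative). Without control 2 the fibroblast median was 0.22, and without Cdo1AKO 1 and 3 in turn the endothelial median was 0.28 and 0.34. Among the 13 mitochondrially encoded mRNAs 10 were negative with a median of -0.27. Of 12 immediate early and dissection stress genes 9 were positive with a median of 0.91. Both lists were read only as proxies of RNA quality, for which no direct measure was used. Without Cdo1AKO 2 these medians were -0.83 (13 of 13 negative) and 0.22 (6 of 12 negative). The mitochondrial median was -0.04 without Cdo1AKO 1 and -0.12 without Cdo1AKO 3. The part of adipocyte share and RNA quality in the values of the 8 genes was not tested.

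The genes whose levels over the 6 libraries were most like the mean standardised pattern of the 8 were C330007P06Rik, 2410131K14Rik, Bcat2, a mitochondrial transaminase of branched-chain amino acids, Lncbate1 and Osbpl1a, an oxysterol-binding protein relative. Their Pearson correlations were 0.997 to 0.998 over 6 libraries. Of 15094 genes with a mean of at least 1 CPM, 1012 had a correlation above 0.9. The 8 genes themselves correlated with their mean pattern at 0.99 for Scn7a, 0.97 for Prx, 0.94 for Sox10, 0.92 for Cdh19, 0.89 for Mal, 0.80 for Gfra3, 0.38 for Pmp22 and 0.24 for S100b. Pmp22 and S100b had the lowest of these correlations. Each of the 8 genes is itself part of the mean pattern, which raises its correlation, so these values are a description only.

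The 250 bases before the start site are shown for Mal, Prx and Scn7a, the genes without overlap between groups that have an entry among the RefSeq promoters (GRCm38.p6; 5 of the 8 genes had one). Each was searched on both strands for the SOX motifs ACAAAG and ACAATG and for the EGR motifs GCGTGGGCG and GCGGGGGCG, and capitals mark a match. The windows are chr2:127656696-127656945, minus strand, for Mal, chr7:27499074-27499323, plus strand, for Prx, and chr2:66784911-66785160, minus strand, for Scn7a, all printed 5′ to 3′ on the gene's strand.
Mal: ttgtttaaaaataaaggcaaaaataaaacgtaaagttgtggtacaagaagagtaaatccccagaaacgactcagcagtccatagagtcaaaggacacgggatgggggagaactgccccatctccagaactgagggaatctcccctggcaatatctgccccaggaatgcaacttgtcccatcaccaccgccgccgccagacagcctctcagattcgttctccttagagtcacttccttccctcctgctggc
Prx: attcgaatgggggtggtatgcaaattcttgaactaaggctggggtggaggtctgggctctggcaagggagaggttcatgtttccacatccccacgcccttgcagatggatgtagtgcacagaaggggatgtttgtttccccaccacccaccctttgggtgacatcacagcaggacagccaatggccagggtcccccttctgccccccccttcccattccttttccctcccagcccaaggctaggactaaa
Scn7a: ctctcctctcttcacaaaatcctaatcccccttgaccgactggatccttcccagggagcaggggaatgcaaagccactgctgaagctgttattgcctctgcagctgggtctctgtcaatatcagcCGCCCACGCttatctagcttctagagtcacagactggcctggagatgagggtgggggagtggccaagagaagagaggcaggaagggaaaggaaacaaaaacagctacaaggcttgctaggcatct
Scn7a held 1 match, to GCGTGGGCG on the opposite strand, 125 to 117 bases before the start, and Mal and Prx held no match to any of the 4 motifs. Of 32851 promoter windows of this length, 25.2% held either SOX motif and 3.06% either EGR motif. A match is a stretch of letters and not a bound site, and its absence says only that these letters are not in this window.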

How the data were processed

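Raw read counts per gene of the 6 libraries were deposited in 1 table, per the file headers. Columns named WT were taken as the libraries titled Control, since their genotype label is WT, with the same number. The submitters' processing notes name mm10, DESeq2 1.20.0, HISAT2 2.0.5 and featureCounts 1.5.0-p3 with no role for any. The authors also deposited FPKM values, used here for levels per length, and their comparison as log2 fold changes and p-values, per the file headers. RNA was extracted with TRIzol and libraries were built with NEBNext Ultra reagents, per the labels' protocols.

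Genes passing edgeR's filterByExpr (16623 of 54532, all 8 described genes among them) were tested with edgeR 4.0.16 (TMM, quasi-likelihood, group only) in R 4.3.3, with Benjamini-Hochberg adjustment over all tested genes and a threshold of 0.05. CPM uses TMM-scaled library sizes. DESeq2 1.42.0 and limma 3.58.1 (voom) were alternatives, beside other scalings, filters, a replicate block, each library left out, and a term marking libraries whose median CPM of lymph node and B cell markers was above 5. The tests were checked on simulated counts. Where a symbol names more than 1 gene, the copy with most counts entered its list.

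The 8 genes, the lists, the lymph node term and the rule for named genes were chosen with earlier results of these data known. The rule named the 8 genes, up to 3 genes with the smallest p of each list, lineage genes (Mbp, Mag, Egr2, Erbb3, Ngfr, Ncam1, Gfap, Th, Tubb3, Ret, Artn), Cdo1 and the 5 genes most alike. Some genes the rule names are not reported here. Cldn19, Fa2h, Cd9, Kcna1, Cadm2, Plekha4, Foxd3, Gjc3 and Csn3 were named after their values were seen, as were the genes of the heat map. Markers of 11 cell types and lists read as proxies of RNA quality were summed per library. Markers of lymph node, T cells, skeletal muscle, mural cells and mesothelium are given where they bear on a result or in the closing section.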

Additional observations from a re-analysis of the deposited data

How the results depend on the processing

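The 6 lower genes kept their direction under every alternative in which they were fitted. Gfra3 could not be fitted where a CPM of at least 1 was required in 3 libraries. The sign of Pmp22 and S100b turned without Cdo1AKO 2 (-0.32 and -0.41) and within the 4 libraries with lymph node transcripts (-0.29 and -0.12). With a library left out, Pmp22 ranged from -0.32 to 0.49 and S100b from -0.41 to 1.32. The number of the 8 genes called went from 0 with edgeR to 3 with DESeq2, 4 with the lymph node term and 5 within those 4 libraries, and the number of all genes called from 0 to 271, 686 and 2617. It stayed at 0 for both under other scalings, other filters, robust estimation, limma-voom, the replicate block and with any library left out, where both counts ranged from 0 to 0.

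The median log2 fold change of the 8 was -1.16, and -1.06 with library totals alone, -0.97 with the CPM filter, which leaves out Gfra3, and -0.85 within the 4 libraries, and it ranged from -1.41 without control 2 to -0.86 without control 1. The replicate block gave a median of -1.11. Same-numbered libraries deviated from their group means with correlations of -0.66, -0.66 and 0.42, and none correlated best with its own number. Control 1 and Cdo1AKO 2, the libraries without lymph node transcripts, had the highest correlation (0.70). Since that difference dominates the deviations, these correlations cannot show whether the numbers pair the libraries. Sox10, Mal and Gfra3 rest on 7 to 75 counts per library, which limits their precision.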

Other observations

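Markers of 3 further cell types were read beside the Schwann cell genes. The 10 pericyte and smooth muscle markers summed to 694 to 893 CPM in controls and 1031 to 1669 CPM in Cdo1AKO, without overlap. Their median level per library did overlap between the groups. Of the 10, 3 were negative, with a median log2 fold change of 0.32. Without Cdo1AKO 2 the median was -0.10, with 6 of 10 negative. Acta2 alone had a mean of 186 CPM in controls and 522 CPM in Cdo1AKO, a large part of the difference in the sums. The 14 skeletal muscle markers summed to 79.3 to 145 CPM in controls and 154 to 236 CPM in Cdo1AKO, also without overlap. The 8 mesothelial markers were low, at 6.01 to 7.01 CPM in controls and 1.42 to 4.67 CPM in Cdo1AKO. Gjc3, a gap junction gene of Schwann cells that was too low to be tested, measured 0.859, 0.428 and 0.751 CPM across controls but 0.09998, 0.257 and 0.274 CPM across Cdo1AKO.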
